A study of Homo sapiens with 16 samples.

Results

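The complement system was followed here through 9 genes: the central component C3, the proteases C1R and C1S, the alternative pathway protease CFB, and the regulators CFI, SERPING1, CD46, CD55 and CD59. They were picked by name and were read in 3 bulk RNA sequencing tables and in a pair of single-cell libraries of kidney organoids. The tables held 20121 genes in set 1, 27650 in set 2 and 21093 in the TNF set, and the single-cell matrices held 36601 genes. CFB had no row in any of the 3 bulk tables, so 8 members were measured in bulk and all 9 in single cells.

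The organoids were grown from UM77-2, 1 human embryonic stem cell line, and the labels name no genetic change in any group. Set 1 held 1 library each of spheroids at day 21 (D21), day 25 (D25) and day 29 (D29), and set 2 held 2 libraries at each of these days. The TNF set held spheroids collected on D25 after 24 h or 48 h with TNFα, an inflammatory cytokine, at 5 ng/ml or with vehicle (VC), at 1 library per treatment and time. The single-cell libraries were 1 of VC and 1 of TNFα for 24 h at the same dose, taken on day 24 from whole wells, which hold the cells around the spheroids as well. The labels do not say that libraries came from separate cultures, so p-values measure the spread between these libraries, which may be technical.

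Complement is a cascade of plasma and tissue proteins that marks and lyses targets. C1R and C1S are the serine proteases of the C1 complex, which starts the classical pathway by cutting C4 and C2. CFB supplies the protease of the alternative pathway, and both routes converge on the cleavage of C3. SERPING1 encodes C1 inhibitor, which blocks C1R and C1S. CFI is the protease that inactivates C3b and C4b, and CD46, which sits on the cell surface, is one of its cofactors. CD55 speeds the decay of the C3 convertases, and CD59 stops assembly of the membrane attack complex. Most circulating complement is made by the liver, and kidney tubule and stromal cells are known local sources, particularly of C3 in inflammation.

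The genes lie on 6 chromosomes in GRCh38, with GENCODE 44 limits. C3 is at chr19:6677704-6730562 on the minus strand. C1R (chr12:7080214-7092540, minus) and C1S (chr12:6988259-7071032, plus) are neighbours. CFB is at chr6:31945650-31952086 (plus), CFI at chr4:109731008-109802150 (minus) and SERPING1 at chr11:57597387-57619171 (plus). CD55 (chr1:207321519-207386804, plus) and CD46 (chr1:207752037-207795513, plus) lie close together, and CD59 is at chr11:33703010-33736479 (minus). In this annotation CFB shares 42.3% of its exon bases with the gene ENSG00000244255, CFI shares 29.4% with ENSG00000285330, C3 shares 11.7% with ENSG00000276980 and C1R shares 11.6% with its paralog C1RL, each on the same strand. Reads in such stretches may be split or dropped in counting, so the bulk values of C3, C1R and CFI carry that limit, and its part in the results was not tested.

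Promoter sequence was at hand for 6 of the 9 members, as the 250 bases before the RefSeq start sites (GRCh38.p14), and C3, C1S and SERPING1 were not among them. Shown here are stretches for CFB, C1R and CD59, whose levels were higher with TNFα, and for CFI, whose bulk level did not pass the test for TNFα. Capitals mark a palindromic STAT-type element (TTCNNNGAA, called GAS type) or an interferon-response type element (GAAA, 2 of any base, then GAAA, called ISRE type), each searched on both strands. The first CFB stretch is chr6:31945845-31945982 (plus), which stops before the annotated 5′ UTR, and holds the ISRE-type letters. The second is the 29 bases at chr6:31945993-31946021 around a GAS-type match in that UTR. The C1R stretch is chr12:7091894-7092143 (minus), the window of the inner of its 2 start sites, inside a non-coding C1R exon. The CD59 stretch is chr11:33736480-33736729 (minus) and the CFI stretch chr4:109802000-109802249 (minus), whose last 151 bases fall in a non-coding CFI exon.
CFB, ISRE type: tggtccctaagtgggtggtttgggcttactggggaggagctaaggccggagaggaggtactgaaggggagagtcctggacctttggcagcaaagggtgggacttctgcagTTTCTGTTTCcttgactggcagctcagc
CFB, GAS type: cgcttggatgTTCCGGGAAagtgatgtgg
C1R, GAS type: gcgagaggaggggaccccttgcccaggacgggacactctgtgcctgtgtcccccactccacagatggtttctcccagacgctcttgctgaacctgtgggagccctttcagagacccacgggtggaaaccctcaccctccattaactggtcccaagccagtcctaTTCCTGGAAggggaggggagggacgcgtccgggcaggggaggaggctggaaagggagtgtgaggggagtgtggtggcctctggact
CD59, GAS type: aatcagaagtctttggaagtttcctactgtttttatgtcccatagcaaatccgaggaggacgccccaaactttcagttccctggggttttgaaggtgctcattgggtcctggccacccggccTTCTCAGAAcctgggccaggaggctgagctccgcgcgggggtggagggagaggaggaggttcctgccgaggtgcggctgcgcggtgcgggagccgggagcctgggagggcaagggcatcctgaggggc
CFI, no match: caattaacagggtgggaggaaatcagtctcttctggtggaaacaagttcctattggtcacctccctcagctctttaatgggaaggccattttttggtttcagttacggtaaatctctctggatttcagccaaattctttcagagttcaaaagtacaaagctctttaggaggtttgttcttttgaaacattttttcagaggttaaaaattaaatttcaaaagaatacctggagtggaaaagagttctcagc

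The GAS-type match began 92 bases before the CFB start, 86 bases before the inner C1R start and 128 bases before the outermost CD59 start. The ISRE-type match began 140 bases before the CFB start. The same CD59 letters lie 184 bases before the second of its 4 start sites, and its remaining, inner start sites held neither type. The outer C1R start, CFI, CD46 and CD55 held neither. Of all 35116 promoter windows of this length, 6.57% held the GAS-type letters and 3.02% the ISRE-type letters. An NF-kB-type string (GGG, 5 of any base, then CC) was in 54.4% of all windows, so its presence near CFB, CD46, CD55, CD59 and C1R separates little. A match describes letters and says nothing of binding.

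The bulk libraries held 19073609 to 59246286 reads. As a check of the labels, 12 textbook NF-kB targets listed in the TNF set summed to 274 and 267 CPM (read counts scaled to library size) with VC and to 2191 and 1610 with TNFα, and 13 in single cells to 213 and 2792 CPM. Marker levels shifted with day: 8 stromal markers summed to 4219 and 4817 CPM at D21 and to 14150 and 17670 at D29 in set 2, while 11 podocyte markers went from 12010 and 12560 to 8579 and 4106. Leukocyte markers summed to no more than 13.3 CPM in any bulk library, with 4 or fewer of 9 listed in each table, and to 33.0 CPM in VC and 48.3 CPM in TNFα in single cells, where all 9 were listed and 2 and 1 were at 0. The single-cell libraries stood apart in depth, with a median of 6358.5 UMIs (counted molecules) per cell over 11906 cells in VC and 2599 over 23160 cells in TNFα, and they shared 82 barcodes, 0.656% of those in VC.

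**Figure D1:**
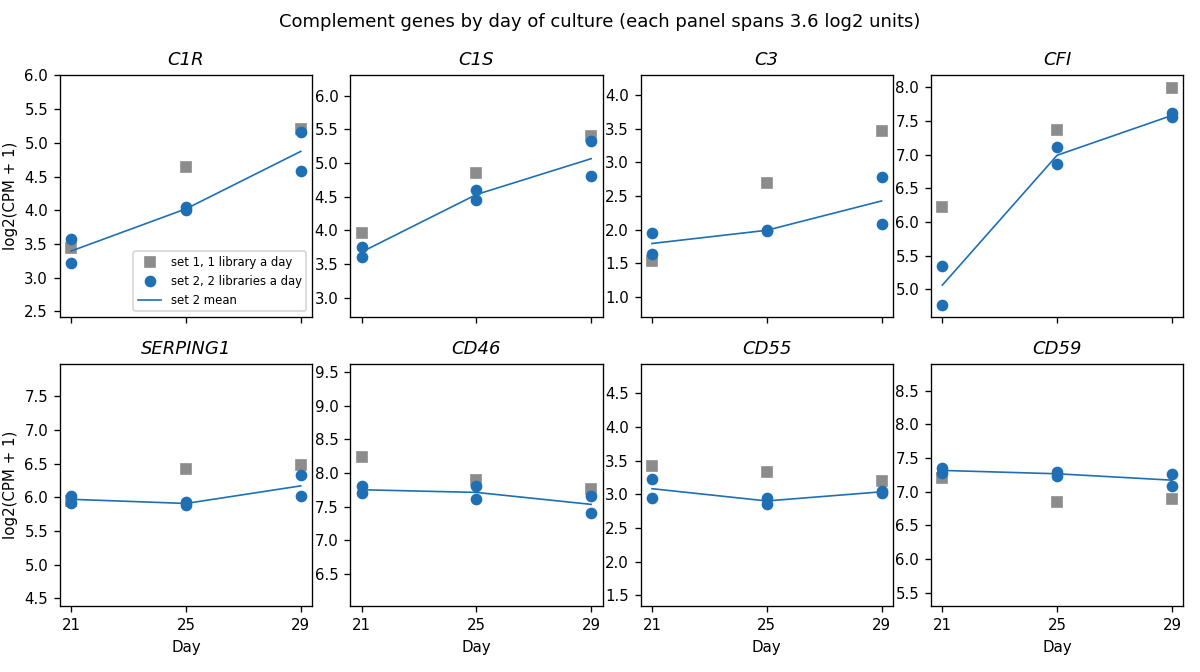
Log2(CPM + 1) of the 8 members in bulk, 1 panel per gene, by day of culture, with 1 point per library (2 libraries per day in set 2, 1 per day in set 1) and a line through the set 2 means. CFI goes from 4.77 and 5.35 at D21 to 7.55 and 7.61 at D29 in set 2, C1R and C1S also lie higher at D29, and CD46, CD55 and CD59 each span less than 1 log2 unit over all 9 libraries.

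Between D21 and D29, C1R, C1S and CFI rose in set 2 and the surface regulators did not pass the test. The bulk values are on the log2(CPM + 1) scale, on which a change of low genes is understated. The test was limma with its trend over all 27650 genes, with Benjamini-Hochberg adjusted p under 0.05 as the call. By this rule 3 of 8 members were called, all higher, beside 18.4% of all genes. In a fit of only the 18572 genes with a mean log2 over 1, as all 8 members have, 27.8% were called. The median log2 change was 0.42 over the members and -0.02 over all genes.

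CFI, the C3b-inactivating protease, had the largest change of the members. Its level in set 2 was 5.35 and 4.77 at D21, 7.12 and 6.86 at D25, and 7.55 and 7.61 at D29. No library of one day reached into the range of another. Of all 27650 genes, 13825 had D25 and D21 libraries that did not overlap. For D29 and D25 libraries the number was 13161, so this separation is not by itself a result. The D29 to D21 difference was 2.52 (SE 0.17, adjusted p 0.000129 by limma), and the D25 to D21 difference was 1.93 (SE 0.17, adjusted p 0.00146 by limma). In set 1 the single CFI values were 6.22, 7.37 and 7.99 at D21, D25 and D29, in the same order.

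C1R and C1S, the partner proteases, moved side by side. C1R in set 2 was 3.57 and 3.21 at D21, 4.04 and 4.0 at D25, and 4.58 and 5.16 at D29. C1S was 3.75 and 3.61, then 4.61 and 4.46, then 4.80 and 5.33. For both genes every D29 library lay above every D25 library, and every D25 library above every D21 library. In each step such a separation was common over all genes, as counted above for CFI. The D29 to D21 difference was 1.48 for C1R (SE 0.20, adjusted p 0.00177 by limma) and 1.39 for C1S (SE 0.16, adjusted p 0.00112 by limma). Set 1 gave 3.44, 4.65 and 5.21 for C1R and 3.96, 4.85 and 5.41 for C1S.

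C3 was the lowest member at each day of set 2 when taken per kilobase of exon. Its log2 level was 1.63 and 1.96 at D21, 1.99 and 1.99 at D25, and 2.08 and 2.77 at D29, on 45 to 161 reads. The D29 libraries lay above the D21 ones, but the D29 replicates were further apart than the days. The difference of 0.63 (SE 0.24) was not called (adjusted p 0.118 by limma), whereas edgeR gave 0.87 with an adjusted p of 0.0496. In set 1 the values were 1.53, 2.69 and 3.47, a difference of 1.94 that has no replicate check.

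The regulators other than CFI gave no call in this fit. SERPING1 in set 2 was 5.92 and 6.02 at D21, 5.93 and 5.89 at D25, and 6.01 and 6.32 at D29. CD46 was 7.81 and 7.70, then 7.81 and 7.62, then 7.66 and 7.41. CD59 was 7.28 and 7.35 at D21 and 7.26 and 7.09 at D29, and CD55 stayed between 2.85 and 3.22 in all 6 libraries. The D29 to D21 differences were 0.20 for SERPING1, -0.22 for CD46, -0.14 for CD59 and -0.05 for CD55, with adjusted p of 0.236, 0.202, 0.254 and 0.876 by limma. With the Org number of the libraries as a block CD46 was called (-0.22, adjusted p 0.0417 by limma), beside 21.9% of all genes in that fit.

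The single steps gave fewer calls. From D21 to D25 the called members were CFI and C1S (0.85, SE 0.16, adjusted p 0.0271 by limma), 2 of 8 beside 5.37% of all genes. With only genes of a mean log2 over 1 in the fit, the share was 10.2%. From D25 to D29 none of 8 was called by limma, beside 2.08% of all genes. In that step 4 members had an unadjusted p under 0.05, as did 4820 of the 27650 genes. There edgeR called 2 members, beside 4.83% of all genes, and DESeq2 called 3, beside 4.66%. Of all genes, 59.9% had D29 and D21 libraries that did not overlap, so the separation of C3, C1R, C1S and CFI upward and CD46 and CD59 downward is not by itself a result.

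The changes depended in part on the first D29 library. Without it, the D29 to D21 change was 0.98 for C3, 0.35 for SERPING1 and -0.34 for CD46. That fit holds 1 library at D29, so the spread between the D29 libraries no longer enters it and its calls are not given here. C1S lost its call from D21 to D25 when any one of the D21 or D25 libraries was left out, with adjusted p of 0.113 to 0.209 by limma. Its change in those fits was 0.78 to 0.93, against 0.85 with all libraries, and the genes called fell from 1486 to between 241 and 498. Stromal marker levels moved with the same days, as given above, and in bulk more cells of a type cannot be told apart from more RNA per cell. Their part in the rise of C1R, C1S and CFI was not tested.

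Per kilobase of exon, the order of the members changed with day. In set 2 at D21 the means in CPM per kilobase were 15.02 for CD59, 13.9 for CD46, 8.53 for SERPING1, 6.22 for CFI, 1.65 for C1R, 1.43 for C1S, 0.733 for CD55 and 0.215 for C3. C1R and C1S overlapped in their replicates, and the other neighbours did not. At D29 CFI led at 35.8, followed by CD59 at 13.6, CD46 at 12.0 and SERPING1 at 9.86, then C1R at 4.98, C1S at 3.98, CD55 at 0.703 and C3 at 0.391. At D29 CD59 with CD46, CD46 with SERPING1, and C1R with C1S were neighbours whose replicates overlapped.

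**Figure D2:**
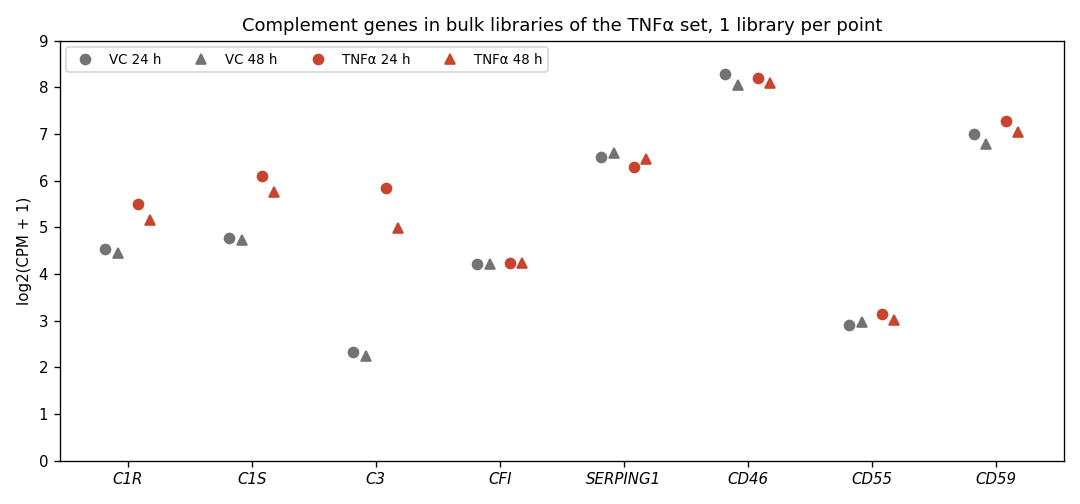
Log2(CPM + 1) of the 8 members in the 4 bulk libraries of the TNF set, with the genes along the axis. There is 1 point per library, coloured by treatment (VC or TNFα) and shaped by hours of treatment. C3 lies at 2.32 and 2.25 with VC and at 5.85 and 4.98 with TNFα, while CFI lies at about the same level in all 4.

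With TNFα, C3, C1S, C1R and CD59 rose in the bulk spheroids, 4 of 8 members beside 19.3% of all genes (limma over 21093 genes, with treatment time as a term). With only genes of a mean log2 over 1 in the fit, the share called was 23.6%. Each treatment and time had 1 library, so the times stood in for replicates. The median log2 change was 0.22 over the members and -0.03 over all genes.

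C3 went furthest. Its log2(CPM + 1) level was 2.32 with VC and 5.85 with TNFα at 24 h, and 2.25 and 4.98 at 48 h. Both treated libraries lay far above both vehicle libraries, on 2972 and 1813 reads against 217 and 187. The difference was 3.13 (SE 0.14, adjusted p 2.08e-11 by limma). In CPM the ratio was 14.1 at 24 h and 8.15 at 48 h, and the treated level was 0.86 lower on the log2 scale at 48 h than at 24 h, which has no test. Per kilobase of exon C3 went from place 8 of 8 with VC to place 6 at 24 h and place 7 at 48 h with TNFα.

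C1S was 4.78 with VC and 6.11 with TNFα at 24 h, and 4.73 and 5.76 at 48 h. C1R was 4.54 and 5.49 at 24 h, and 4.46 and 5.16 at 48 h. For both proteases the treated libraries lay above the vehicle ones at each time, and 46.2% of all genes had treated and vehicle libraries that did not overlap. The difference was 1.18 for C1S (SE 0.08, adjusted p 9.54e-09 by limma) and 0.83 for C1R (SE 0.08, adjusted p 1.09e-06 by limma). As with C3, the gap to VC was smaller at 48 h than at 24 h, 1.03 against 1.33 for C1S and 0.70 against 0.96 for C1R, a difference that was not tested.

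CD59, which guards cells against lysis, changed little. It was 7.0 with VC and 7.28 with TNFα at 24 h, and 6.77 and 7.05 at 48 h. The gap between the treatments, 0.28 and 0.27, was about as large as that between the vehicle libraries. The difference of 0.28 (SE 0.06, adjusted p 0.00336 by limma) passed the test with time as a term and was lost without it (adjusted p 0.243 by limma) or without the limma trend (0.0625).

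The other regulators gave no call. SERPING1 was 6.50 with VC and 6.30 with TNFα at 24 h, and 6.59 and 6.46 at 48 h, a difference of -0.16 (adjusted p 0.0900 by limma). CD46 was 8.27 and 8.20, then 8.05 and 8.10. CD55 was 2.89 and 3.15, then 2.96 and 3.02. CFI was between 4.21 and 4.23 in all 4 libraries, a difference of 0.01 (SE 0.09). The CFI level in this table lay below that at D25 in set 1 (7.37) and set 2 (7.12 and 6.86), but the tables were made separately and such a gap has no test.

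Leaving out any one library of the TNF set, which also removes the time term, left 2 or 3 members called and 638 to 738 genes in place of 4061. C3 and C1S kept their call in each of these fits, CD59 lost it in each, and C1R lost it without the 48 h vehicle library (0.79, adjusted p 0.0512 by limma). Podocyte markers summed to 7553 and 7029 CPM with VC and 4561 and 3394 with TNFα, proximal tubule markers to 929 and 930 and to 485 and 551, and stromal markers to 6565 and 8078 and to 8206 and 8565. The part of these shifts in the complement changes was not tested.

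In single cells, clusters were made jointly after the libraries were aligned, named from fixed markers and called by that name with "-like". The classes of the TNFα library were less distinct than those of VC. When that library was clustered alone, 11638 of its 23160 cells fell in a single cluster without a name. Of its stromal-like cells, 98.7% came from clusters unnamed in that run. Another of the unnamed clusters, with 2350 cells, passed 7 of 8 stromal markers. It went unnamed because its leading genes held markers of another class and none of its own. The part of this naming rule in the 98.7% was not tested. COL1A1, a stromal collagen, stood at 2275 CPM in stromal-like and 122 CPM in neuronal-like cells of VC, and at 1499 and 465 CPM in TNFα. The 8 stromal markers stood in neuronal-like cells at 3.47% to 7.87% of their stromal-like level in VC and at 27.0% to 38.2% in TNFα. Beside the class ratios, values with the cluster of 11638 cells left out are therefore also given for the main ones.

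**Figure D3:**
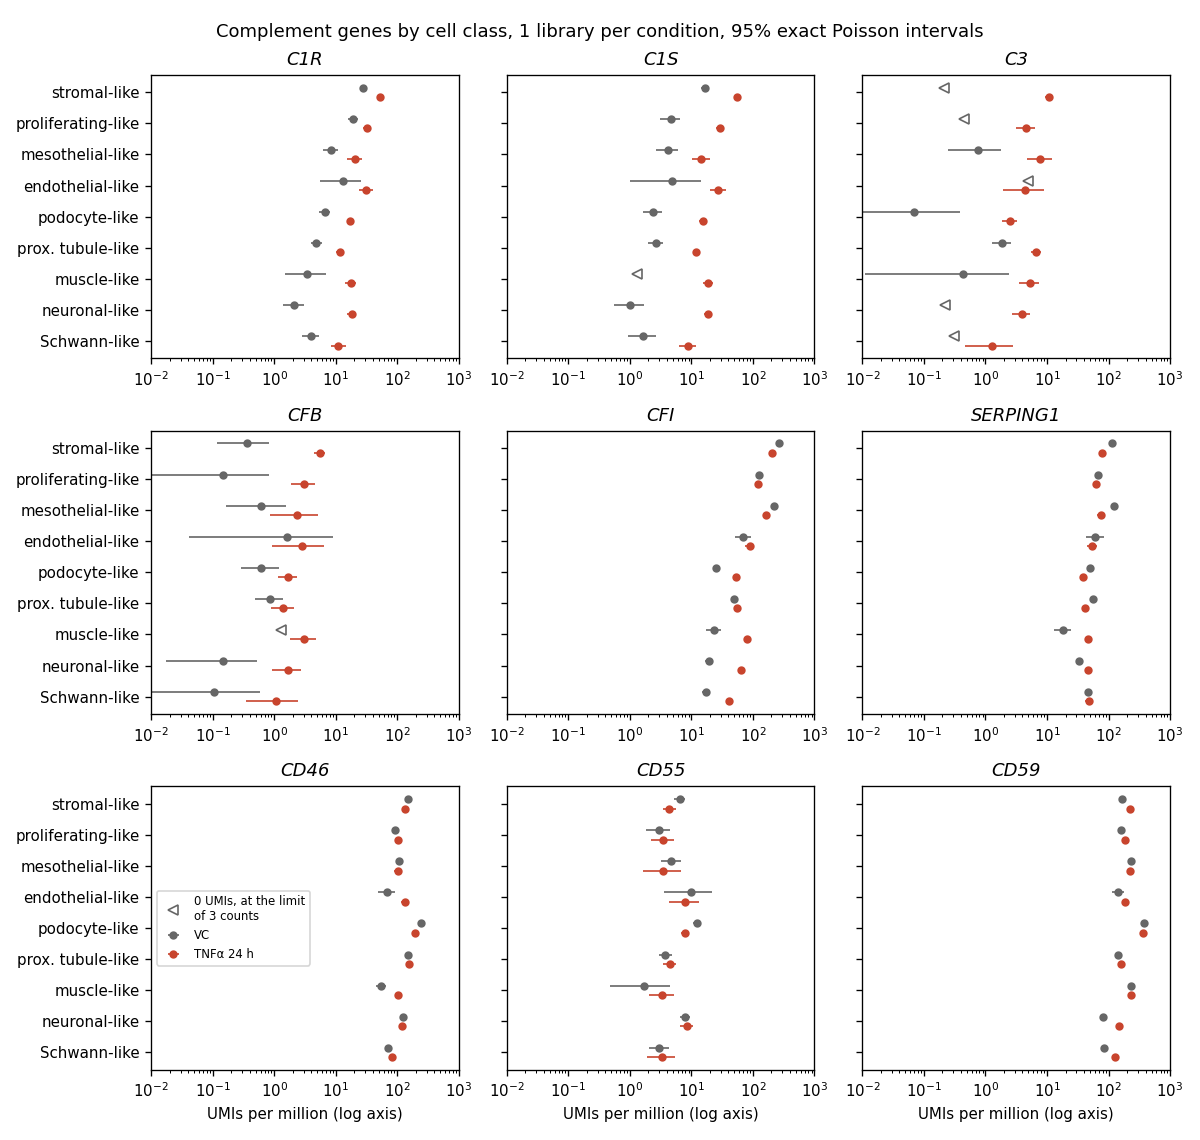
CPM of the 9 members by cell class in the VC and TNFα single-cell libraries on a log axis, 1 panel per gene, with exact 95% Poisson intervals and an open triangle at the limit of 3 counts where no UMI was found (the axis ends at 0.01 CPM, where some intervals are cut off). C3 in VC stands above that limit mainly in proximal tubule-like cells, and in TNFα its highest value is in stromal-like cells, with an interval that overlaps that of mesothelial or coelomic epithelium-like cells.

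The single-cell libraries showed which classes held these transcripts. With 1 library per condition there is no test, and the intervals given are 95% and cover counting error only. Over all cells C3 went from 43 UMIs (0.427 CPM) in VC to 478 (5.24 CPM) in TNFα, a ratio of 12.3 (8.97 to 17.2). CFB, which the bulk tables lacked, went from 41 to 228 UMIs, a ratio of 6.14 (4.39 to 8.78). C1S had a ratio of 5.27 (4.75 to 5.85) and C1R of 2.53 (2.35 to 2.74). With the largest cluster of the TNFα library left out these ratios were 12.98 for C3, 6.30 for CFB, 5.02 for C1S and 2.54 for C1R.

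The regulators differed less between the libraries. CD59 had a ratio of 1.27 (1.24 to 1.29), CFI 1.08 (1.05 to 1.11, turning to 0.939 with cells thinned to 1500 UMIs), CD46 0.992 (0.969 to 1.02), CD55 0.917 (0.811 to 1.04) and SERPING1 0.832 (0.802 to 0.864). Beside these, the CPM ratios of the bulk spheroids at 24 h were 14.1 for C3, 2.57 for C1S, 1.99 for C1R, 1.22 for CD59, 1.02 for CFI, 0.950 for CD46, 1.22 for CD55 and 0.868 for SERPING1. The materials differ, since the bulk libraries are isolated spheroids on D25 and the single cells are whole wells on day 24.

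C3 in VC lay mainly in proximal tubule-like cells, the epithelium of the main reabsorbing segment of the nephron. They held 35 of its 43 UMIs, in 30 of 1297 cells (1.86 CPM, 1.30 to 2.59), which is 81.4% of the UMIs against 18.7% of all UMIs in the library. Stromal-like and neuronal-like cells, at 2568 and 1756 cells, had 0 C3 UMIs. In stromal-like cells the upper limit of the exact Poisson interval was 0.263 CPM. The share of cells with a C3 UMI was 2.31% in proximal tubule-like cells at a median of 8846 UMIs, and 0.402% after each cell was thinned to 1500 UMIs.

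In TNFα the class with the highest C3 level was stromal-like, at 174 UMIs and 10.7 CPM (9.21 to 12.5). With the 0 UMIs of VC set to 3 counts, this was 50.2-fold above VC, a value that leaves out counting error. With VC set in the same way, the value was 12.8 with cells thinned to 1500 UMIs and 58.9 without the largest own-library cluster. Mesothelial or coelomic epithelium-like cells were at 7.81 CPM on 20 UMIs (4.77 to 12.1), which overlaps the stromal-like interval, with a ratio of 10.3 (3.75 to 35.1), and proximal tubule-like cells at 6.59 CPM (108 UMIs, ratio 3.55, 2.40 to 5.35). Without the largest own-library cluster these ratios were 11.04 and 4.01. After thinning the proximal tubule-like ratio was 2.17 with an interval that held 1 (0.840 to 7.14). Podocyte-like cells had 47 C3 UMIs against 1 in VC, neuronal-like cells 35 against 0, and proliferating-like cells 32 against 0. Cells with a C3 UMI made up 2.93% of stromal-like and 2.27% of proximal tubule-like cells in TNFα, or 1.41% and 0.847% after thinning.

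C1R and C1S were highest in stromal-like cells, the matrix-producing cells around the nephrons, in both libraries. C1S in stromal-like cells went from 16.5 to 54.6 CPM, a ratio of 3.32 (2.87 to 3.85), and these cells held 51.9% of its UMIs in VC and 41.7% in TNFα. C1R there went from 28.2 to 52.2 CPM, a ratio of 1.85 (1.64 to 2.09). Without the largest own-library cluster the stromal-like ratios were 3.90 for C1S and 2.20 for C1R. In proliferating-like cells C1R went from 19.3 to 31.7 CPM and C1S from 4.59 to 29.4 CPM. CFB in stromal-like cells went from 5 to 89 UMIs, a ratio of 15.4 (6.36 to 48.6), while in proximal tubule-like cells it went from 16 to 23 UMIs, a ratio of 1.65 whose interval held 1 (0.836 to 3.35). Without the largest own-library cluster these CFB ratios were 19.2 and 0.924.

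**Figure D4:**
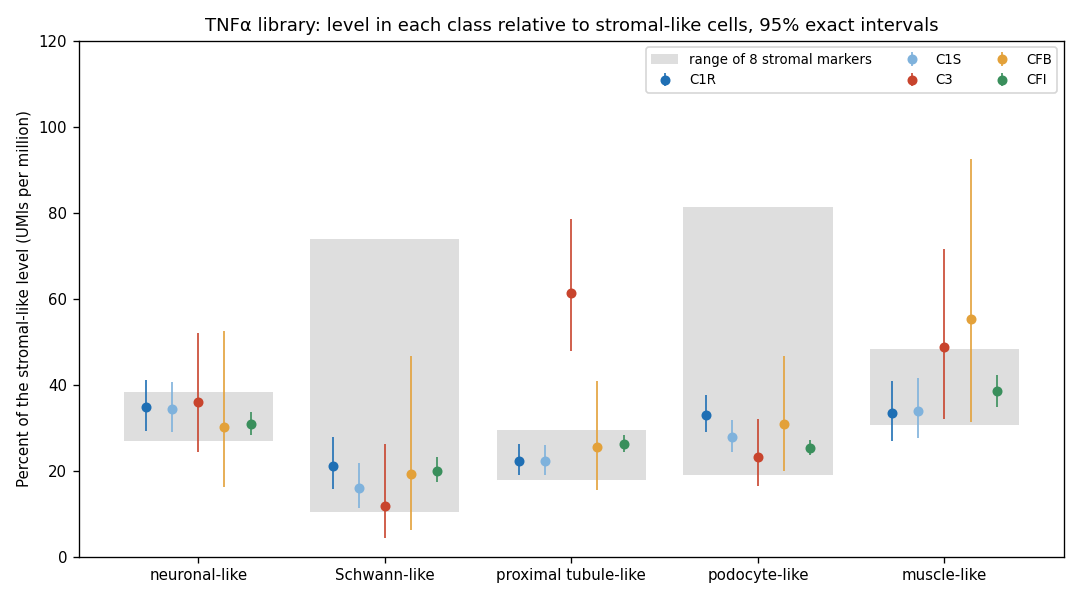
Level of C3, C1R, C1S, CFB and CFI in 5 other classes of the TNFα library as a percent of the level in stromal-like cells, with 95% exact counting intervals, over a grey band for the range of the 8 stromal markers in that class. In proximal tubule-like cells C3 stands at 61.4%, above the marker range of 17.9% to 29.5%, and the other members fall within it. In muscle-like cells C3 and CFB also lie above the marker range, on 31 and 18 UMIs.

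Set against that measure, the levels of C1R, C1S, CFB and CFI in neuronal-like and proximal tubule-like cells fell within the range of the stromal markers, and C3 in proximal tubule-like cells lay above it. In neuronal-like cells of the TNFα library these 5 members stood at 30.2% to 36.0% of their stromal-like level, within the marker range. In proximal tubule-like cells C1R, C1S, CFB and CFI stood at 22.1% to 26.2%, within the marker range of 17.9% to 29.5%, whereas C3 stood at 61.4% (47.8 to 78.5). With the cells of the largest own-library cluster left out, the markers there stood at 7.64% to 11.1%, C3 at 59.2% (44.2 to 78.8) and the other 4 members at 11.5% to 16.1%, then above the range too. C3 in podocyte-like cells was at 23.1% (16.4 to 32.1), within a marker range of 19.0% to 81.4%. In muscle-like cells the marker range was 30.7% to 48.3%, and C3 and CFB lay above it on 31 and 18 UMIs. C3 stood there at 5.23 CPM against 10.7 in stromal-like cells, and CFB at 3.04 against 5.50. In neuronal-like cells the TNFα to VC ratios were 18.5 for C1S, 8.59 for C1R and 3.33 for CFI (16.1, 8.28 and 3.15 without the largest own-library cluster), in a class where the stromal markers were higher too, and the part of stromal transcripts from other cells in these ratios was not tested.

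CFI was highest in stromal-like and mesothelial or coelomic epithelium-like cells in VC, at 264 and 223 CPM. Both were lower in TNFα, at 207 and 166 CPM, with ratios of 0.786 (0.750 to 0.824) and 0.743 (0.666 to 0.829). Without the largest own-library cluster the stromal-like CFI ratio was 0.907 (0.862 to 0.953) and the mesothelial or coelomic epithelium-like one 0.785. Proliferating-like cells stood at 126 and 121 CPM. SERPING1 was highest in the same pair of classes, at 115.4 CPM in stromal-like and 121 CPM in mesothelial or coelomic epithelium-like cells of VC, against 79.0 and 74.6 CPM in TNFα. Its ratio was also below 1 in proximal tubule-like (0.731, 0.663 to 0.806) and podocyte-like cells (0.774, 0.697 to 0.859). Without the largest own-library cluster these SERPING1 ratios were 0.674 and 0.653.

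The 3 surface regulators were highest in podocyte-like cells, the filtration epithelium of the glomerulus, in VC. CD59 stood there at 380 CPM, CD46 at 246 CPM and CD55 at 12.5 CPM. In TNFα the podocyte-like levels were 362, 193 and 7.93 CPM, with ratios of 0.953 (0.919 to 0.987), 0.786 (0.750 to 0.823) and 0.635 (0.508 to 0.793). CD59 in stromal-like cells went from 163 to 227 CPM (1.39, 1.32 to 1.46), and CD55 there from 6.49 to 4.38 CPM (0.675, 0.488 to 0.931). The stromal-like CD55 ratio turned to 1.17 with cells thinned to 1500 UMIs, with an interval that held 1 (0.616 to 2.33). With the cells of the largest own-library cluster left out, CD59 in podocyte-like cells turned to a ratio of 1.16, while CD46 and CD55 there stood at 0.831 and 0.646 and CD59 in stromal-like cells at 1.51.

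Of 50 other complement genes on a fixed list, 30 were tested in set 2 and 24 in the TNF set. Between D21 and D29, 5 rose and 3 fell, 8 of 30 called beside 18.4% of all genes. Those past 1 on the log2 scale were C7, a subunit of the membrane attack complex (3.55, SE 0.29, adjusted p 0.000233 by limma), the C4 genes C4B (1.58) and C4A (1.21), and CD93, a receptor of endothelial and myeloid cells (1.03). In set 1 CD93 went the other way, from 4.37 at D21 to 3.63 at D29. C7 was 5.55 and 4.69 at D21 and 8.34 and 9.0 at D29. C4A and C4B are near-identical copies whose reads may be split. The 3 that fell moved by -0.59 to -0.38.

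With TNFα 2 of the 24 rose and 9 fell in bulk, 11 called beside 19.3% of all genes. The one past 1 on the log2 scale was VTN, vitronectin, an inhibitor of the terminal pathway, at 2.73 and 2.97 with VC and 1.36 and 0.94 with TNFα (-1.70, SE 0.14, adjusted p 1.23e-07 by limma). The sum of the 5 hepatocyte markers listed there, of 8, went from 476 and 496 CPM with VC to 194 and 182 with TNFα. Of these, 4 were called lower and 1 higher. Their list includes AFP and SERPINA1, which were also leading genes of proximal tubule-like cells in some clusterings. The part of these markers was not tested. In single cells VTN stood at 149 and 61 UMIs, a ratio of 0.452 (0.330 to 0.613). C1QA, C1QB and C1QC, the recognition subunits of C1 made mainly by macrophages, had 0 UMIs in both libraries.

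Across the 9 named classes in both libraries (18 points, which share libraries and depth), the genes whose level in log2(CPM + 10) was most like C3 were SFRP4 (Pearson r 0.898), FDCSP (0.894), TNFRSF9 (0.871), CD74 (0.87) and CXCL10 (0.868), among 5699 genes that reached 50 CPM. For C1S they were ISOC1 (0.958), SFRP4 (0.947), SULT1E1 (0.944), BOK (0.935) and its partner C1R (0.931). Among members, CFB was the most like C3 (0.868), and CD55 the least (-0.20). These values describe these classes and have no test.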

How the data were processed

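Bulk values were deposited by the authors as log2(CPM + 1), with 0.5 added to each count, after STAR 2.7.8a alignment to GRCh38 and HTSeq counting (0.11 in the submitters' notes). Undoing these steps gave whole reads for 100% of values, to within 1e-06 reads. The single-cell matrices hold UMI counts deposited by the authors from Cell Ranger (2.1.1 in the notes, 6.0.1 in the matrix header), with hg19 and hg38 both named and no role given. The D25 NLW50 library was not analysed here. Strandedness: not given in the sources used here.

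Set 2 and the TNF set were tested with limma 3.58.1 (R 4.3.3) on the deposited log2 values, with all genes adjusted together and 0.05 as the threshold. Set 1, with 1 library per day, has no test. edgeR 4.0.16 and DESeq2 1.42.0 ran on the recovered reads as alternatives. Exon length was the union of GENCODE 44 exons. On simulated data with known changes in set 2, limma found 74% of 2-fold and 100% of 4-fold changes, and in the TNF set 97% and 100%. False calls made up 0% of the calls in set 2 and 6.64% in the TNF set. The simulation gave all genes the same spread and changed only genes above a set mean of reads. It held no effect of time and no difference in the TNFα effect between 24 h and 48 h. The 6.64% therefore does not measure false calls in the real TNF set, where the times stand in for replicates.

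Cells with over 500 genes (11906 of 12494 and all 23160 barcodes) were scaled to 10000 UMIs. The 2000 most variable genes of each library were joined and reduced to 30 components. The libraries were aligned by the Harmony method, written in numpy. All cells were then clustered jointly by Leiden at resolution 0.25 (leidenalg 0.10.2). A cluster was named from at least 3 fixed markers, and 4 clusters stayed unnamed. Scrublet called 0 doublets at its automatic thresholds, which means the caller did not work, so 181 and 532 cells with a score over 0.25 were left out as an alternative. UMIs were summed per class, with exact Poisson intervals for levels and exact conditional intervals for ratios. A class at 0 was set to 3 counts for a bound. Motifs were searched on both strands of 35116 RefSeq promoter windows.

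Members, gene lists and tests were chosen with earlier results of these data known. Genes named were the 9 members, other complement genes called with a log2 change of at least 1, and the 5 genes most like C3 and C1S. Org numbers of set 2 were checked for pairing: deviations from the day means correlated at 0.143, 0.075 and 0.27 over 18572 genes, so the numbers were not taken as pairs.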

Additional observations from a re-analysis of the deposited data

Results flagged for a closer look

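In single cells, where each condition is 1 library, 4 members moved in opposite directions between classes, each with a counting interval past 1 on its own side. CD46 had a TNFα to VC ratio of 1.93 in endothelial-like and 0.786 in podocyte-like cells. CD59 had 1.83 in neuronal-like and 0.953 in podocyte-like cells. CFI had 3.48 in muscle-like and 0.743 in mesothelial or coelomic epithelium-like cells, and SERPING1 had 2.59 and 0.618 in the same pair. Stromal markers stood in muscle-like cells at 3.68% to 36.8% of their stromal-like level in VC and at 30.7% to 48.3% in TNFα. With the largest own-library cluster of the TNFα library left out, CD46 in endothelial-like cells was 0.713, on 4 UMIs and with an interval that held 1 (0.186 to 1.97), and CD59 in podocyte-like cells was 1.16, so neither of these pairs then lay on opposite sides of 1. These differences between classes were not tested.

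In bulk, CD46 was 0.07 lower on the log2 scale with TNFα at 24 h (-0.07) and 0.05 higher at 48 h, with 1 library for each. From D25 to D29, CD55 went by -0.13 in set 1 and by 0.14 in set 2. Neither of these differences was tested. No group had the 4 libraries needed to ask whether one lay far from the rest.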

How the results depend on the processing

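The all-cell C3 ratio kept its direction in 6 alternatives (11.99 to 14.03). Resolution 0.5 and clustering each library alone only relabel the same cells, so this ratio could not change there. Of the members' log2 changes with TNFα, 81 alternative values stayed on their side of the threshold and 7 lost the call. In D29 against D21, 99 stayed and 5 gained a call. A fit without 1 library of a compared day holds 1 library there, so its counts of calls do not carry that day's spread. Leaving out 1 library gave 3 to 6 members and 2358 to 5417 genes called in D29 against D21, 1 to 3 and 241 to 2231 in D25 against D21, 0 to 3 and 0 to 2014 in D29 against D25, and 2 to 3 and 638 to 738 with TNFα.

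Members called in D25 against D21 numbered 1 without the limma trend. In D29 against D25 they numbered 3 by DESeq2, 2 by edgeR, and 1 each with a mean log2 over 1, median centring or no 1 added. All genes called there numbered 1288 by DESeq2, 1336 by edgeR, 209 without the trend, 1122 with a mean log2 over 1, 1106 with median centring and 1118 with the Org number as a replicate block. The replicate block added CD46 to the members called in D29 against D21 (-0.22, adjusted p 0.0417 by limma), 4 in all. With TNFα, DESeq2 called 2184 genes, and 1310 were called with no time term.

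Of the other single-cell ratios in the alternatives, 363 stayed within their main counting interval and 73 lay outside it. A further 9 turned over to the other side of 1. With each library clustered alone, CD46 was 0.911 in Schwann or glial-like and 0.991 in muscle-like cells, CFI 0.941 and CD59 1.21 in podocyte-like cells. With cells thinned, CFI over all cells was 0.939 and CD55 in stromal-like cells 1.17. With the largest own-library cluster left out, an alternative chosen after seeing the data, CD46 was 0.936 in Schwann or glial-like and 0.713 in endothelial-like cells, and CD59 1.16 in podocyte-like cells. The causes were not tested. Leaving out called doublets was not run, since none were called. Depth limits C3 and CFB, which had 43 and 41 UMIs in all VC cells.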
